A study of Mus musculus with 4 samples.

Results

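The genes of MHC class II antigen presentation were examined in RNA-Seq libraries of lung tumor-infiltrating CD4+ T cells. The group was set by name and comprised 10 of the 25239 gene symbols counted: the chain genes *H2-Aa*, *H2-Ab1* and *H2-Eb1*, the invariant chain gene *Cd74*, the peptide exchange genes *H2-DMa*, *H2-DMb1* and *H2-DMb2*, their modulators *H2-Oa* and *H2-Ob*, and the transactivator gene *Ciita*. The rule uses no measured value, although the genes were picked with earlier results of these data known, and all 10 passed the filter on low counts. There were 4 libraries, of which 2 carry the label WT and 2 the label CD4/ALK4-KO, from young adult male mice on the C57BL/6 background. All mice received LLC-OVA cells, which are Lewis lung carcinoma cells carrying ovalbumin as a model antigen, by the intravenous route, and their lung tumors were removed at day 18 to 22 according to the sample labels, whereas the methods give somewhat earlier days. CD4/ALK4-KO mice have the genotype CD4CreERT2+/-/Acvr1bfl/fl, in which tamoxifen activates a Cre recombinase made under the *Cd4* promoter and thereby deletes *Acvr1b*, the gene of the activin receptor ALK4, in cells that use this promoter. The sources do not say whether the WT mice received tamoxifen or how many mice contributed to a library, so that p-values measure the spread between these libraries. The cells were taken with a commercial kit for CD4+ T cells from the leukocytes of a density gradient.

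MHC class II molecules are pairs of an alpha and a beta chain that carry peptides from endosomes to the cell surface, where the T cell receptor of CD4+ T cells reads them together with the CD4 coreceptor. The newly made pair is held by the invariant chain, DM exchanges the remnant of this chain for peptide, and DO binds DM and restrains it. Dendritic cells, macrophages and B cells are the main cells that present in this way, DO is best known from B cells, and T cells of the mouse are known to make little class II of their own, unlike activated human T cells.

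The library labels were first set against marker genes. *Acvr1b* had 426 and 342 counts in the WT-labelled libraries and 322 and 445 counts in the CD4/ALK4-KO-labelled ones, so that the deletion was not visible in the counts of the whole gene, which do not tell its exons apart (log2 fold change 0.16, SE 0.24, edgeR quasi-likelihood test, adjusted p = 0.66). All 12 T cell markers were detected in every library, but their summed level was 453 and 422 CPM (counts scaled to a common library size) in the WT-labelled libraries against 2427 and 2234 CPM in the CD4/ALK4-KO-labelled ones. *Cd4* itself had 759, 649, 3654 and 4033 counts in WT replicates 1 and 2 and CD4/ALK4-KO replicates 1 and 2. Markers of monocytes and macrophages summed to between 7119 and 8243 CPM over the 4 libraries, above the T cell markers in each one. *Lyz2* alone made up most of this sum, with 4278, 5687, 4758 and 4227 CPM in the same library order. Sums of unlike marker lists do not measure the shares of cell types. B cell markers were at 95.4, 81.7, 281 and 560 CPM. In such bulk samples, fewer cells of a type and less RNA per cell cannot be told apart. Total counts ranged from 11823908 to 13943237 per library.

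Of the 10 genes, 8 lay on chromosome 17 of the mouse genome build GRCm38, between 34092340 and 34316674, in the class II region of the major histocompatibility complex. Along the chromosome they were *H2-Oa* (34092340 to 34095234), *H2-DMa* (34119541 to 34139101), *H2-DMb2* (34143307 to 34151555), *H2-DMb1* (34153072 to 34160230), *H2-Ob* (34238903 to 34254414), *H2-Ab1* (34257689 to 34269419), *H2-Aa* (34282744 to 34287823) and *H2-Eb1* (34305867 to 34316674). *H2-Aa* is transcribed from the minus strand and the others from the plus strand. *Ciita* lies on the plus strand of chromosome 16 from 10480059 to 10528418, and *Cd74* lies on another chromosome.

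Class II promoters are known for a shared module, in which the X box is bound by the RFX complex and the Y box by NF-Y, and CIITA joins the assembled proteins without touching the DNA. RefSeq promoter windows (GRCm38.p6, 300 bases from 250 before the start) were used for 7 of the 10 genes. They were searched on both strands for the Y box core TGATTGG alone, and for AAC followed by 20 to 30 bases of any kind and TGATTGG, as a plain reading of the module. The sequences of 6 genes are printed because they show how much of the module the chains, DM and DO have in common. Each runs 5′ to 3′ along the gene, and capitals mark AAC with 5 bases on either side and the Y box core.
H2-Aa, chr17:34287857-34287917, minus strand: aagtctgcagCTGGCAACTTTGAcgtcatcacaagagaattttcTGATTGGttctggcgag
H2-Eb1, chr17:34305763-34305822, plus strand: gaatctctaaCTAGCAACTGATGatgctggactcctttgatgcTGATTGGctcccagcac
H2-DMb1, chr17:34153084-34153144, plus strand: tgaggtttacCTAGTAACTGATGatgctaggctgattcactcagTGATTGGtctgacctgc
H2-DMb2, chr17:34145113-34145173, plus strand: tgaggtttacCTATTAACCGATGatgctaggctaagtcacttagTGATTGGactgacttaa
H2-Oa, chr17:34092290-34092350, plus strand: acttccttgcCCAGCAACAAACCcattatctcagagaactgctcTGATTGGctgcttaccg
H2-Ob, chr17:34238805-34238862, plus strand: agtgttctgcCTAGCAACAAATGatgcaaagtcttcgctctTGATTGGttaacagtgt

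In these 6 windows, 23 to 26 bases separated AAC from TGATTGG, and the Y box core began between 45 and 92 bases before the start. The windows at the 2 RefSeq starts of *H2-DMa* held neither pattern. *H2-Ab1* and *Ciita* were not matched, and the chromosome of *Cd74* was left out when the genes were matched. Across 32851 windows of the same length, 7.82% held TGATTGG and 1.05% held the module. The stretches of *H2-DMb1* and *H2-DMb2* had the same base at 52 of 61 positions. A match of letters is not a binding site. The 161 other tested genes with the module were counted without the class II gene *H2-Eb2*, which also held it and was called higher. They comprised 14 called higher, which is 8.7%, and 30 called lower on the TMM scale described below. Over all genes tested, 17.4% were called higher and 15.4% lower. The log2 fold changes of these 161 genes had a median of -0.05.

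All 10 class II genes were higher in both CD4/ALK4-KO-labelled libraries than in both WT-labelled ones on the TMM scale, which sets the bulk of genes equal between libraries. All 10 log2 fold changes turned negative when T cell receptor complex genes set the scale, where 93.6% of all genes tested were called lower. On the TMM scale the fold changes ran from 1.48 for *H2-Aa* to 3.74 for *H2-Ob*, and all 10 passed the threshold of an adjusted p of 0.05. The median of the 10 log2 fold changes was 1.05, against -0.01 over the 13919 genes tested. Of all genes tested, 17.4% were called higher and 15.4% lower, and 32.7% had both CD4/ALK4-KO-labelled libraries above both WT-labelled ones. Within the group, the genes of DO, *Ciita* and *H2-DMb2* had log2 fold changes of 1.70 to 1.90, and the classical chain genes and *Cd74* had 0.57 to 1.03. In all 10 genes WT replicate 2 was the lowest library and CD4/ALK4-KO replicate 2 the highest.

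**Figure D1:**
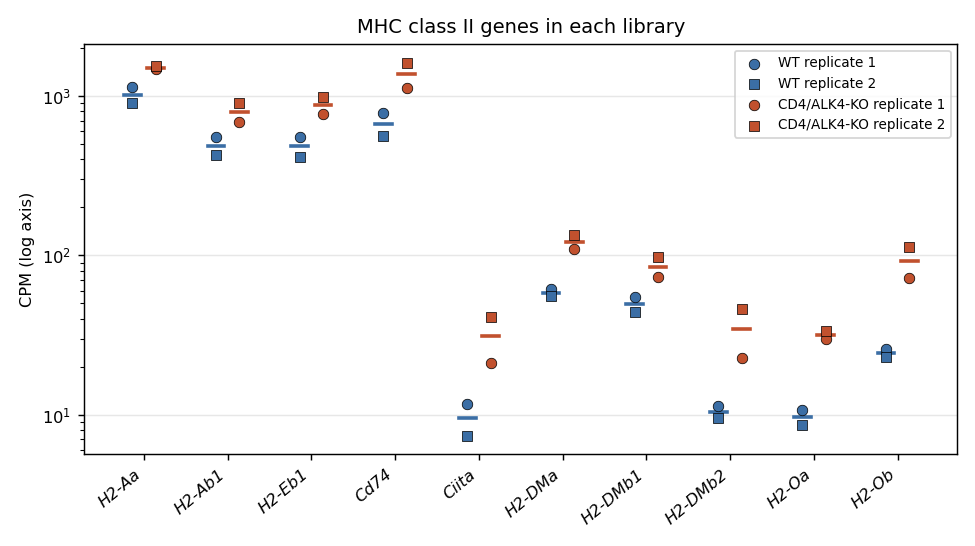
CPM of the 10 MHC class II genes on a log axis, with 1 point per library and a bar at the mean of each label (n = 2). Both CD4/ALK4-KO-labelled libraries lie above both WT-labelled ones for every gene on this TMM scale, from *Ciita* (7.39 to 40.9 CPM) to *H2-Aa* (901 to 1541 CPM). Relative to T cell receptor complex genes the direction turns, on a scale where 93.6% of all genes tested were called lower.

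Among the classical chains, *H2-Aa* encodes the alpha and *H2-Ab1* the beta chain of the I-A molecule. *H2-Aa* stood at 1131 and 901 CPM in the WT-labelled libraries and at 1474 and 1541 CPM in the CD4/ALK4-KO-labelled ones. The groups did not overlap, and the WT libraries were farther apart than the other pair. The rise was 1.48-fold (log2 fold change 0.57, SE 0.20, edgeR adjusted p = 0.036), the smallest of the 10. *H2-Ab1* stood at 550 and 424 CPM against 690 and 907 CPM. Again the lowest CD4/ALK4-KO-labelled library was above the highest WT-labelled one, and CD4/ALK4-KO replicate 2 was the higher of its pair. This rise was 1.64-fold (log2 fold change 0.71, SE 0.22, edgeR adjusted p = 0.017).

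*H2-Eb1* encodes the beta chain of I-E, whose alpha chain gene *H2-Ea* is known to be silent in mice of the b haplotype such as C57BL/6. *H2-Ea* had 1, 0, 2 and 0 counts and was not tested. *H2-Eb1* had 553 and 414 CPM in the WT-labelled libraries and 769 and 990 CPM in the CD4/ALK4-KO-labelled ones. The groups were apart by more than the gap within the WT pair, and the gene rose 1.82-fold (log2 fold change 0.86, SE 0.22, edgeR adjusted p = 0.0048). The related beta chain gene *H2-Eb2*, which was not in the group, had 93 and 78 counts against 236 and 283 counts. It rose 3.40-fold (log2 fold change 1.77, SE 0.29, edgeR adjusted p = 6.7e-05).

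*Cd74* encodes the invariant chain, which fills the groove of the new class II pair and leads it to endosomes, and which also serves at the cell surface as a receptor for the cytokine MIF. Its levels were 785 and 557 CPM in the WT-labelled libraries and 1117 and 1617 CPM in the CD4/ALK4-KO-labelled ones. Replicate 2 was the lower library of the WT pair and the higher of the other, and the groups did not overlap. *Cd74* rose 2.04-fold (log2 fold change 1.03, SE 0.23, edgeR adjusted p = 0.0016). The calls of these abundant genes depended on single WT-labelled libraries. Without WT replicate 2, where 9.34% of all genes tested were called higher, those of *H2-Aa*, *H2-Ab1*, *H2-Eb1* and *Cd74* were lost, with log2 fold changes of 0.41, 0.53, 0.66 and 0.79, and 5 of the 10 class II calls remained. Without WT replicate 1, where 7.66% were called higher, those of *H2-Aa* and *H2-Ab1* were lost at 0.74 and 0.91, and upper quartile scaling (15.4% called higher) ended the call of *H2-Aa* at 0.50.

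DM is a pair of an alpha chain from *H2-DMa* and a beta chain from *H2-DMb1* or *H2-DMb2*, and stays in endosomes, where it edits the peptides of class II. *H2-DMa* had 61.1 and 55.6 CPM in the WT-labelled libraries and 110 and 134 CPM in the CD4/ALK4-KO-labelled ones. The WT pair lay close together and well below the other pair. Its rise was 2.09-fold (log2 fold change 1.06, SE 0.22, edgeR adjusted p = 0.00062). The exons of *H2-DMa* share 10.4% of their bases with *Brd2* on the other strand, whose own log2 fold change was -0.01.

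*H2-DMb1* had 55.0 and 44.0 CPM against 72.8 and 97.3 CPM. All libraries kept the order seen for the chains, and the fold of 1.72 was the smallest in DM (log2 fold change 0.78, SE 0.23, edgeR adjusted p = 0.011). Without WT replicate 1 and without WT replicate 2 this call was lost, at log2 fold changes of 0.94 and 0.62. *H2-DMb2* was the rarer beta chain gene, with 155 and 129 counts in the WT-labelled libraries and 272 and 569 counts in the CD4/ALK4-KO-labelled ones. CD4/ALK4-KO replicate 2 stood far above its partner, by 1.01 on the log2 scale of CPM. The rise was 3.31-fold (log2 fold change 1.72, SE 0.31, edgeR adjusted p = 0.00016), and without CD4/ALK4-KO replicate 2 the log2 fold change was 1.13 and still called. The transcripts of both genes had 94.4% identical bases where they aligned. Of the windows of 75 bases, the read length, 19.1% in *H2-DMb1* also occurred in transcripts of *H2-DMb2*. In *H2-DMb2*, 20.9% also occurred in transcripts of other genes, *H2-DMb1* among them. How reads with several matches were counted is not stated, so that the counts of both genes are uncertain to that extent.

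DO is built from the alpha chain of *H2-Oa* and the beta chain of *H2-Ob*. *H2-Oa* had 146 and 116 counts, or 10.7 and 8.58 CPM, in the WT-labelled libraries. In the CD4/ALK4-KO-labelled ones it had 353 and 411 counts, or 29.7 and 33.3 CPM. Both pairs were tight relative to the distance between them. The gene rose 3.27-fold (log2 fold change 1.71, SE 0.27, edgeR adjusted p = 4.5e-05). The library kit does not mark the strand, and 22.8% of the exon bases of *H2-Oa* overlap the antisense gene *BC051537*, which had 0, 1, 1 and 5 counts.

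*H2-Ob* had 26.0 and 23.1 CPM in the WT-labelled libraries and 71.6 and 112 CPM in the CD4/ALK4-KO-labelled ones. The WT pair was close, while CD4/ALK4-KO replicate 2 exceeded replicate 1 by 0.65 on the log2 scale. Its 3.74-fold rise was the largest of the 10 (log2 fold change 1.90, SE 0.24, edgeR adjusted p = 3.6e-06). The calls of *H2-Oa*, *H2-Ob*, *H2-DMa*, *H2-DMb2* and *Ciita* were kept whichever single library was left out.

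*Ciita* encodes the transactivator that is required for transcription of class II genes and is itself under separate promoters in dendritic cells, in lymphocytes and after interferon gamma, which counts per gene do not separate. It had 161 and 100 counts in the WT-labelled libraries and 253 and 505 counts in the CD4/ALK4-KO-labelled ones. Both pairs were wide, with 0.67 and 0.94 between replicates on the log2 scale of CPM, but did not overlap. *Ciita* rose 3.25-fold (log2 fold change 1.70, SE 0.32, edgeR adjusted p = 0.00034), with the largest standard error of the group. Its exons overlap those of *Dexi* on the other strand over 3.45% of their bases, and *Dexi* had a log2 fold change of -0.11 that did not pass the test.

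Levels were compared between genes as CPM per kilobase of the main transcript. In the WT-labelled libraries, *H2-Aa* was the highest at 901 ± 144 CPM per kilobase (SD, n = 2), followed by *Cd74* at 476 ± 115, *H2-Ab1* at 402 ± 73.4 and *H2-Eb1* at 290 ± 59.0 CPM per kilobase. *H2-DMb1* and *H2-DMa* came next at 35.3 ± 5.56 and 35.2 ± 2.34 CPM per kilobase, then *H2-Ob* at 9.20 ± 0.752, *H2-Oa* at 8.84 ± 1.35 and *H2-DMb2* at 7.32 ± 0.881, and *Ciita* was the lowest at 1.59 ± 0.513 CPM per kilobase. The ranges of neighbours overlapped for *Cd74* and *H2-Ab1*, for both abundant DM genes, and from *H2-Ob* through *H2-Oa* to *H2-DMb2*.

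The CD4/ALK4-KO-labelled libraries kept the same order except within DM. There *H2-Aa* had 1336 ± 42.6 CPM per kilobase (SD, n = 2), *Cd74* 970 ± 251, *H2-Ab1* 659 ± 127 and *H2-Eb1* 527 ± 93.9 CPM per kilobase. *H2-DMa* had 73.6 ± 10.1 and *H2-DMb1* 60.6 ± 12.3, *H2-Ob* 34.4 ± 10.7, *H2-Oa* 28.9 ± 2.36, *H2-DMb2* 24.2 ± 11.5 and *Ciita* 5.17 ± 2.31 CPM per kilobase. *Cd74* was here apart from *H2-Ab1*, whereas *H2-Ab1* and *H2-Eb1* overlapped, as did *H2-DMa* and *H2-DMb1* and again *H2-Ob*, *H2-Oa* and *H2-DMb2*. The chain and *Cd74* messages were thus more abundant per length than any DM, DO or *Ciita* message in every library.

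Ratios of counts between the genes within a library do not depend on how libraries are scaled. Per 100 counts of *H2-Aa*, *Cd74* had 69.4 and 61.8 counts in the WT-labelled libraries and 75.8 and 105 counts in the CD4/ALK4-KO-labelled ones. *H2-Ab1* per 100 counts of *H2-Aa* was 48.6, 47.1, 46.8 and 58.8 in the same order, and here the groups overlapped. The ratio of the I-A chains thus overlapped between the labels, whereas that of the invariant chain to the alpha chain did not. With 2 libraries against 2, a two-sided exact permutation test cannot give a p below 0.333, and the ratios are given without a test.

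The genes of DO were set against those of DM. *H2-Ob* per 100 counts of *H2-DMb1* was 47.2 and 52.6 in the WT-labelled libraries and 98.3 and 115 in the CD4/ALK4-KO-labelled ones, a difference of 1.09 on the log2 scale. *H2-Oa* per 100 counts of *H2-DMa* was 17.4 and 15.4 against 26.9 and 24.9, a log2 difference of 0.66. Neither ratio overlapped between the labels. Against the rarer *H2-DMb2*, *H2-Oa* overlapped, at 94.2 and 89.9 against 130 and 72.2 per 100 counts, and *H2-Ob* was barely apart, with a log2 difference of 0.23. *H2-Ob* per 100 counts of *H2-Oa* was 244, 270, 241 and 337, so that the ratio of the DO chains overlapped. *H2-DMb2* per 100 counts of *H2-DMb1* went from 20.6 and 21.7 to 31.4 and 47.4, and *Ciita* per 100 counts of *Cd74* from 1.50 and 1.33 to 1.90 and 2.53, both without overlap.

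**Figure D2:**
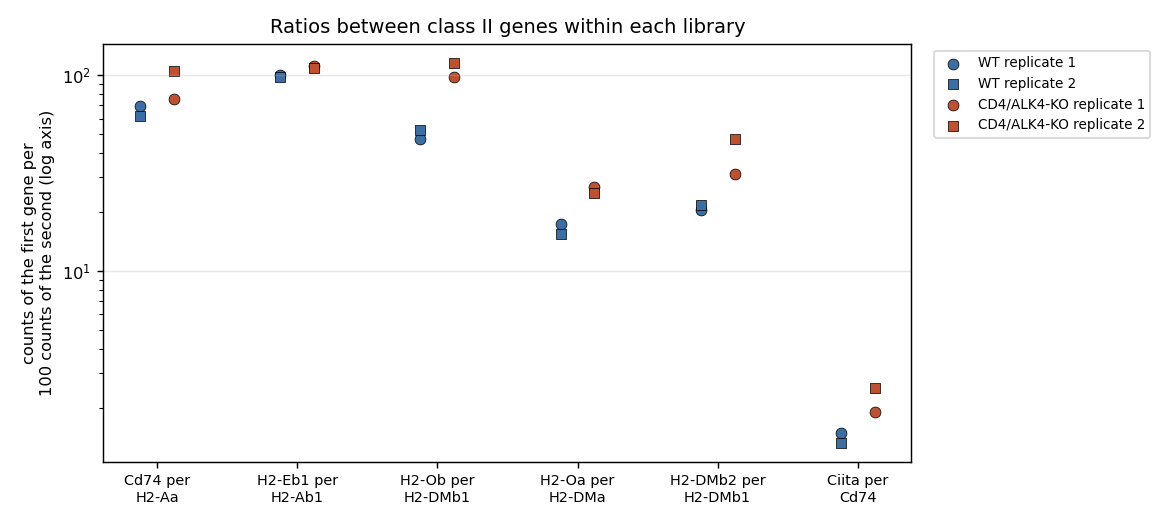
Counts of 1 class II gene per 100 counts of another in each library, on a log axis, for 6 pairs. The CD4/ALK4-KO-labelled libraries lie above the WT-labelled ones in all 6 pairs shown, with the widest separation for *H2-Ob* per *H2-DMb1* (47.2 and 52.6 against 98.3 and 115). Pairs that overlapped between the labels, *H2-Ab1* per *H2-Aa*, *H2-Ob* per *H2-Oa* and *H2-Oa* per *H2-DMb2*, are not shown.

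The sign of the group depended on the yardstick. Scaling to 7 T cell receptor complex genes moved the median of all genes by -2.39 on the log2 scale, and 93.6% of all genes tested were then called lower and 0.18% higher. On that scale the 10 log2 fold changes ran from -1.81 for *H2-Aa* to -0.48 for *H2-Ob*, all above the shift, and 9 of the 10 were called lower, *H2-Ob* being the exception. Relative to T cell receptor complex genes, the class II genes were lower in the CD4/ALK4-KO-labelled libraries, as were nearly all genes tested. Relative to the bulk of genes the class II genes were higher.

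**Figure D3:**
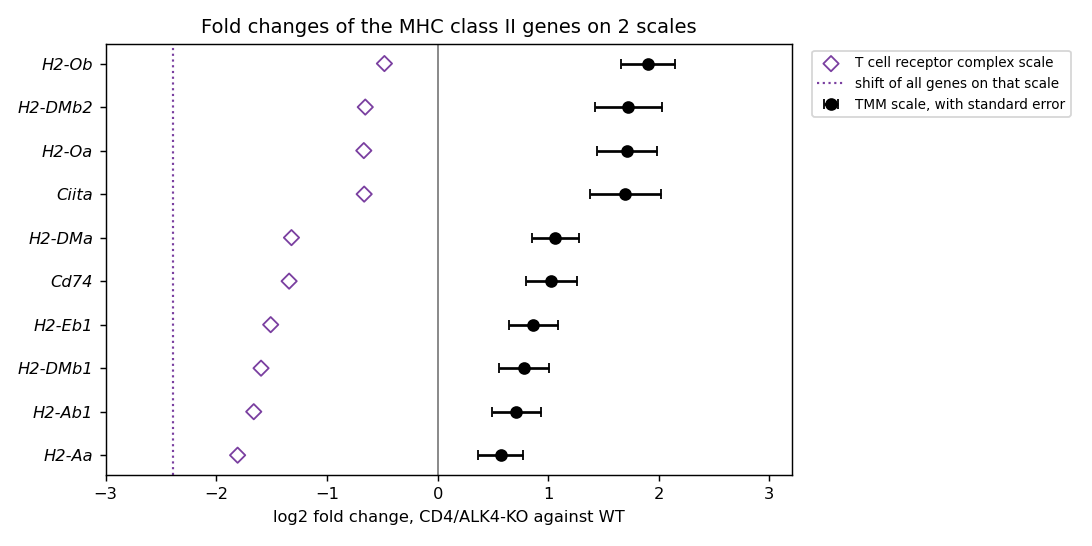
Log2 fold changes of the CD4/ALK4-KO-labelled libraries against the WT-labelled ones, with filled points and standard errors for TMM scaling and open diamonds for scaling to T cell receptor complex genes; the dotted line marks the shift of all genes on the latter scale, -2.39. The 10 genes lie between 0.57 and 1.90 on the first scale and between -1.81 and -0.48 on the second.

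Markers of the cell types that carry class II were listed beside these values. All 12 B cell markers were called higher on the TMM scale, with a median log2 fold change of 2.55, and their sums of 95.4 and 81.7 CPM against 281 and 560 CPM placed CD4/ALK4-KO replicate 2 highest and WT replicate 2 lowest, as for the class II genes. *Cd79b*, a part of the B cell receptor, had 332, 279, 604 and 1163 counts, and *Ms4a1*, which encodes CD20, had 246, 212, 735 and 1098 counts. *Cr2*, a complement receptor of B cells, had a log2 fold change of 3.05. Relative to the summed B cell markers, all 10 class II genes were lower in the CD4/ALK4-KO-labelled libraries, by log2 differences of -1.59 to -0.30. Of these ratios, 9 did not overlap. The sum was itself higher in the CD4/ALK4-KO-labelled libraries, so that a gene that rose less than the sum lies lower by this measure. The share of all genes with ratios apart was not computed, for this sum or for the marker sums below.

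Of 12 markers of monocytes and macrophages, 3 were called higher and none lower, with a median log2 fold change of -0.0026, and their sums were 7119, 8243, 7719 and 7271 CPM. Relative to this sum all 10 class II genes were higher in the CD4/ALK4-KO-labelled libraries, by 0.61 to 1.90, without overlap. *Lyz2*, the lysozyme gene of these cells, which made up most of this sum in every library, had a log2 fold change of -0.15. Of 9 markers of conventional dendritic cells, 4 were called higher and 2 lower (median 0.62), and their sums were 267, 239, 365 and 322 CPM. *Ccr7*, a homing receptor shared with T cells, and *Itgae*, an integrin also found on T cells, rose by 2.12 and 2.03 on the log2 scale, whereas *Fscn1*, an actin bundler of mature dendritic cells, changed by -1.50. All 10 class II genes were higher relative to the sum of these markers, by 0.14 to 1.43, and 7 of the ratios did not overlap. The sum was higher in the CD4/ALK4-KO-labelled libraries, but without *Ccr7* and *Itgae* the markers left were together lower there. That held only through *Fscn1*, and with *Fscn1* also left out the remaining markers were together higher there. From WT to CD4/ALK4-KO, mean CPM went from 29.5 to 129 for *Ccr7*, 17.4 to 70.9 for *Itgae* and 134 to 47.6 for *Fscn1*. The sum and its ratios thus depend on the markers chosen and do not measure the content of dendritic cells.

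In the other lists, 2 of 5 plasmacytoid dendritic cell markers were called higher and none lower, with sums of 325, 356, 333 and 346 CPM. Alveolar macrophage markers summed to 697, 845, 521 and 423 CPM, with 1 of 7 called higher and 1 lower. Alveolar type 2 cells, lung epithelial cells that also carry class II, had sums of 210, 203, 186 and 221 CPM, with 2 of 7 markers called in each direction. Of the plasma cell markers, 3 of 4 were tested, 2 of them higher and 1 lower, with sums of 243, 190, 149 and 190 CPM. Neutrophil markers, which stand for cells with little class II, summed to 837, 1294, 1283 and 852 CPM, with 2 of 6 called higher. All 12 T cell markers were called higher (median 2.39). No marker in any of these lists was at 0 in all libraries. The part of any of these cell types in the class II values was not tested.

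**Figure D4:**
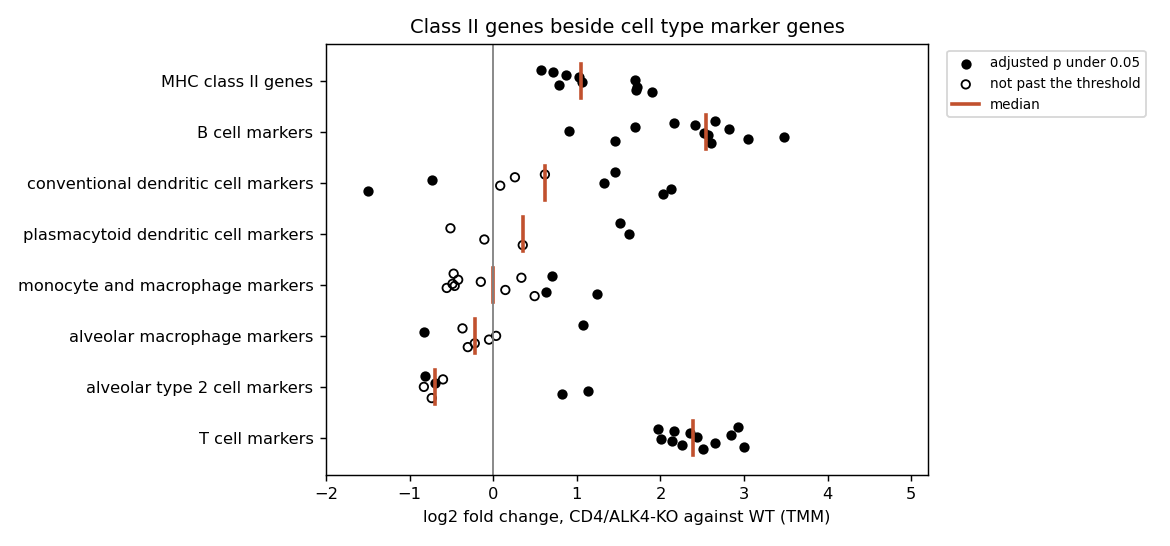
Log2 fold changes (TMM scale) of the class II genes and of 7 lists of cell type markers, with 1 point per gene, filled where the adjusted p was under 0.05, and a bar at the median. The class II median (1.05) lies between those of monocyte and macrophage markers (-0.0026) and of B and T cell markers (2.55 and 2.39). Single values of the class II genes overlap with those of the monocyte and macrophage markers and of the B cell markers. On the T cell receptor complex scale, not shown, all class II genes were negative and 93.6% of all genes tested were called lower.

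The other genes of the pathway were taken from 9 lists. Of 63 such genes tested, 32 were called higher and 6 lower on the TMM scale, with a median log2 fold change of 0.58. Over all genes tested 17.4% were called higher and 15.4% lower, and the counts of each list below stand against these shares. On the T cell receptor complex scale, where 93.6% of all genes tested were called lower and 0.18% higher, 1 of the pathway genes was higher and 57 were lower. Without WT replicate 1 or WT replicate 2, 20 and 19 of them were called higher. Among the proteins that assemble on class II promoters, 6 of 11 were called higher and none lower. *Rfx5*, a subunit of the RFX complex that binds the X box, had 235, 178, 324 and 368 counts (log2 fold change 0.91, SE 0.26, edgeR adjusted p = 0.010). *Creb1*, *Kat2b* and *Ep300*, an X box partner and a pair of histone acetyltransferases, rose by 0.65, 0.83 and 1.11 on the log2 scale. *Nfyb*, a subunit of the Y box factor NF-Y, and *Smarca4*, the motor of a chromatin remodelling complex, had values of -0.11 and 0.26 that did not pass the test.

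Of 11 genes known to act upstream of *Ciita*, 8 were called higher and none lower. The list was not sorted by whether a gene raises or lowers *Ciita*, so that this count gives no direction for it. Genes of interferon gamma signalling were among them, and the receptor gene *Ifngr1* had a log2 fold change of 1.29, the kinase gene *Jak1* 1.01 and the transcription factor gene *Irf1* 1.31. *Irf1* had 1923 and 1637 counts in the WT-labelled libraries and 3492 and 4361 counts in the CD4/ALK4-KO-labelled ones. The second receptor gene *Ifngr2* had a log2 fold change of 0.11 and *Spi1*, the gene of the myeloid and B cell factor PU.1, of 0.01, neither past the threshold. T cells are known to use the interferon gamma genes named here as well.

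Of 10 genes for the proteases that cut the invariant chain and prepare peptides, or that regulate this step, none was called higher and 1 lower on the TMM scale, with a median log2 fold change of -0.02. *Ctss*, the protease of the last step of invariant chain processing in dendritic cells and B cells, had 23113, 23714, 21664 and 19528 counts and a log2 fold change of -0.02. *Ctsb* had -0.32, which did not pass the test, and *Ctsl*, the corresponding protease of the thymic epithelium that macrophages also carry, changed by -1.38 (SE 0.20, edgeR adjusted p = 1.5e-05).

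Among genes of class II turnover and the tetraspanins, which surround class II in the membrane, 4 of 9 were called higher and 3 lower. *Marchf1*, the ubiquitin ligase that sends surface class II to lysosomes, had a log2 fold change of 0.13 and *Marchf8*, its relative, of -0.49, neither past the threshold. The tetraspanins were called in both directions, 3 higher and 3 lower. *Cd53* had 0.58, and *Cd37* and *Cd82*, named after their values were seen, had 1.71 and 1.25, while *Cd63*, *Cd9* and *Cd81* had -1.58, -0.75 and -0.58.

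For CD74 in its role as a MIF receptor, 2 of 6 genes were called higher and 2 lower. The ligand gene *Mif* had 5044 and 3873 counts in the WT-labelled libraries and 1302 and 1606 counts in the CD4/ALK4-KO-labelled ones. It fell by 1.45 on the log2 scale (SE 0.23, edgeR adjusted p = 4.1e-05), opposite to *Cd74* on the TMM scale. The chemokine receptor genes *Cxcr2* and *Cxcr4*, whose products can pair with CD74, had log2 fold changes of 0.76 and 0.69, and *Ackr3* had -1.07. The signalling partner gene *Cd44* and the second ligand gene *Ddt* had 0.11 and 0.32, which did not pass the test.

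Both T cell receptors for class II rose, *Cd4* by 2.62 and *Lag3*, an inhibitory receptor, by 1.55 on the log2 scale. *Lag3* was low, with 72, 25, 106 and 148 counts. Of 4 costimulatory genes of antigen presenting cells, *Cd86*, *Cd40* and *Icosl* were called higher at 0.61, 0.89 and 1.92, and *Cd80* had 0.47 without passing the test. *Icosl*, the ligand of ICOS, had 102, 111, 246 and 474 counts, again with CD4/ALK4-KO replicate 2 highest.

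In the class I pathway, which shows peptides from the cytosol to CD8+ T cells, 6 of 9 genes were called higher and none lower. *Nlrc5*, the class I counterpart of *Ciita*, had 749 and 574 counts in the WT-labelled libraries and 2327 and 3303 counts in the CD4/ALK4-KO-labelled ones. Its log2 fold change of 2.25 (SE 0.23, edgeR adjusted p = 2.5e-07) exceeded the 1.70 of *Ciita*, a difference between genes that was not tested. The peptide transporter gene *Tap1*, the immunoproteasome gene *Psmb8* and the heavy chain gene *H2-K1* had 1.16, 1.06 and 0.68. The light chain gene *B2m* and the heavy chain gene *H2-D1* had 0.04 and 0.10, which did not pass the test.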

How the data were processed

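RNA-Seq libraries were made with an unstranded kit and read as single ends of 75 bp. As stated in the methods and the submitters' processing notes, the authors checked reads with FastQC, aligned them to mm10 with HISAT2 and counted them per gene with HTSeq (intersection-nonempty), and they deposited raw counts per gene symbol. Versions, annotation and the handling of reads with several matches are not given in the sources used here. Genotype and replicate came from the sample titles. From the deposited counts, filterByExpr of edgeR 4.0.16 (R 4.3.3) kept 13919 genes, TMM set the library sizes, and genotype, without covariates, was fitted by robust glmQLFit and tested by glmQLFTest. P-values were adjusted over all genes tested by the Benjamini-Hochberg method, with a threshold of 0.05. The SE of a log2 fold change was its absolute value over the root of the F statistic. The common dispersion was 0.0357. CPM used TMM library sizes, and the scripts were tested on simulated data.

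Replicates differed by more than counting noise (chi-square per degree of freedom of 17.1 within WT, 30.5 within CD4/ALK4-KO). This does not show that they come from different mice, and each library was treated as a sample. The members and lists were chosen with earlier results of these data known. All 10 members were named. Of the other lists, all tested genes were named where a list held 6 or fewer, otherwise up to 4 called and 2 uncalled genes with the highest mean CPM, of marker lists up to 3 genes, and the 5 genes most alike to the chains and *Cd74*. The values of 1 gene that this rule names are not reported here. Gene locations, lengths and overlaps are those of GENCODE M21 (GRCm38), which matched 24323 of 25239 symbols 1 to 1, and promoters are those of RefSeq. Alternatives were DESeq2 size factors, upper quartile scaling, scaling to 7 T cell receptor complex genes, no filter, at least 10 counts in every library, DESeq2 1.42.0, edgeR's likelihood ratio test, the replicate number as a block, and each library left out in turn. Where 1 library was left out, the lone library of its label was assumed to vary like the other pair.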

Additional observations from a re-analysis of the deposited data

How the results depend on the processing

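The 10 rises were called in all 10 genes with DESeq2 size factors (17.6% of all genes tested called higher) and without a filter (13.2%). All 10 were also called with at least 10 counts in every library (18.2%), DESeq2's Wald test (16.4%) and the likelihood ratio test (18.4%). With upper quartile scaling (15.4%), 9 were called. Scaling to T cell receptor complex genes left 0 called higher and 9 called lower, with log2 fold changes of -1.81 (*H2-Aa*), -1.66 (*H2-Ab1*), -1.51 (*H2-Eb1*), -1.34 (*Cd74*), -0.66 (*Ciita*), -1.32 (*H2-DMa*), -1.60 (*H2-DMb1*), -0.65 (*H2-DMb2*), -0.67 (*H2-Oa*) and -0.48 (*H2-Ob*). With 1 library left out, 5 to 10 genes were called higher, 5 without WT replicate 2 and 7 without WT replicate 1, and 0 lower. Of the pathway genes, 32 were called higher and 6 lower, 1 and 57 on the T cell receptor complex scale, and 19 to 33 and 4 to 7 with 1 library left out (20 and 19 higher without WT replicates 1 and 2). Over all genes, 2422 were called higher and 2140 lower, against 25 and 13022 on the T cell receptor complex scale, 1103 and 754 without WT replicate 1, and 1344 and 1047 without WT replicate 2. The replicate numbers name libraries without a stated pairing, and deviations of same-numbered libraries correlated at -0.21. With the replicate number as a block, 8 class II genes were called higher (not *H2-Aa* and *H2-Ab1*, at 0.58 and 0.71), 24 pathway genes higher and 4 lower, and 1768 and 1444 of all genes. With the numbers crossed, a pairing chosen after seeing the data, these counts were 10, 35, 8, 3118 and 3035. Depth limits *Ciita*, *H2-Oa* and *H2-DMb2* most, with 100 to 161 counts in each WT-labelled library, and the chains least. The causes were not tested.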

Other observations

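The 5 genes most alike to the mean profile of *H2-Aa*, *H2-Ab1*, *H2-Eb1* and *Cd74*, by Euclidean distance of centred log2 CPM over the 4 libraries among 10450 genes with at least 100 counts on average, were *Aldoc* (distance 0.035), *Ppcdc* (0.042), *Zgpat* (0.067), *Atg16l1* (0.067) and *Gba2* (0.091). *Aldoc*, which encodes a glycolytic aldolase, had 114, 83, 129 and 174 counts, and its log2 fold change of 0.79 did not pass the test (edgeR adjusted p = 0.057). *Atg16l1*, an autophagy gene, had 392, 309, 461 and 601 counts and a log2 fold change of 0.76 (edgeR adjusted p = 0.016). With only 4 libraries, a close profile is easily met, and these genes are given as a description.

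The class II genes differed in how far the libraries of 1 label lay apart. Between the WT-labelled libraries the gap on the log2 scale of CPM was 0.14 for *H2-DMa* and 0.67 for *Ciita*. Between the CD4/ALK4-KO-labelled ones it was 0.06 for *H2-Aa* and 1.01 for *H2-DMb2*. CD4/ALK4-KO replicate 2 was the higher library of its pair in all 10 genes. The summed markers of B cells (560 against 281 CPM), plasma cells (190 against 149), alveolar type 2 cells (221 against 186) and plasmacytoid dendritic cells (346 against 333) were also higher in it. Those of T cells (2234 against 2427 CPM), monocytes and macrophages (7271 against 7719) and conventional dendritic cells (322 against 365) were lower in it. So were those of alveolar macrophages (423 against 521 CPM) and neutrophils (852 against 1283). The part of the cell types in these gaps was not tested.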
